A study of Mus musculus with 2 samples.

Results

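Intervals of ISL1 CUT&Tag were described around 10 genes of the Notch pathway: the receptor genes Notch1, Notch2 and Notch3, the ligand genes Dll1, Dll3, Dll4, Jag1 and Jag2, and the target genes Hes1 and Hes5. The genes were taken as a list, chosen, like the measures, with earlier results of these data known. Every interval overlapping a gene's span or the 50 kb on either side of it was kept. All 10 were found among 21887 protein-coding genes on chromosomes 1 to 19, X and Y, and their windows held 117 of 123923 intervals in replicate 1 and 98 of 158881 in replicate 2. The data are a single group of 2 samples, both of retina from wild-type mouse embryos (E13.5), when ganglion cells are being born from progenitors. In CUT&Tag, an antibody, here against ISL1, holds the transposase Tn5 near its target in nuclei, and the DNA cut there is sequenced. The labels name more than 1 rabbit antibody to ISL1 without tying either to a sample, and do not say whether the samples came from separate animals. Neither a control antibody nor a retina lacking ISL1 was analysed here, and nuclei came from whole retina, so the cells that gave rise to an interval cannot be told apart.

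Notch receptors are single-pass membrane proteins that are cut when a Delta or Jagged ligand on a neighbouring cell binds them. The released intracellular part enters the nucleus, joins the DNA-binding protein RBPJ and switches on Hes genes, whose products repress proneural genes. In the embryonic retina the pathway is known for keeping progenitors from differentiating, while newly formed neurons present the ligands. ISL1 is a LIM-homeodomain factor of differentiating ganglion cells, and the series set out to find genes it may control directly.

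Each list gives, for an interval, a total signal, which is the sum of coverage along it, and a maximum signal, which is the peak coverage. Read depth is unknown, so signals were ranked within a list, rank 1 being the highest total, and were not compared in size between lists. Coverage is called flat where the total equals width times maximum, and uneven where it is under 95% of that product, which needs more than 1 distinct fragment. A shared region joins intervals from both lists that have 1 bp or more in common. Across the whole lists there were 13704 shared regions. As a check of the tissue, 7 of 7 progenitor markers and 3 of 3 ganglion cell markers had a shared region within 50 kb, but so did 2 of 4 liver, 2 of 3 skeletal muscle and 2 of 3 endothelial markers. Without pairs of intervals with identical ends in both lists the liver markers with one numbered 0, and the other counts stayed at 7, 3, 2 and 2. A shared region near a gene is thus common: 55.4% of all protein-coding genes had one.

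The windows of the 10 genes held 15 shared regions, spread over 8 genes. Hes5 had 4, Notch1, Notch2, Dll4 and Hes1 had 2 each, Dll1, Dll3 and Jag2 had 1 each, and Notch3 and Jag1 had none. The 8 of 10 genes stand beside the 55.4% of all genes, and no test between the genes and the genome was made. In 4 of the 15 regions, those of Dll1, Dll3 and Jag2 and 1 of Notch2, the intervals began and ended at the same bases in both lists, and in each of these 1 list gave a maximum signal of only 1. The whole lists held 1850 pairs with identical ends, and their origin was not tested. Without them 5 of the 10 genes kept a shared region, against 51.0% of all genes. Without intervals of maximum signal 1 it was 4 of the 10 genes, against 41.5% of all, and with only the higher 50% of each list by total signal 3 of 10, against 28.4%. None of the 15 regions ranked in the top 5% of both lists (0 of 15). The share among all 13704 shared regions was not computed.

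**Figure D1:**
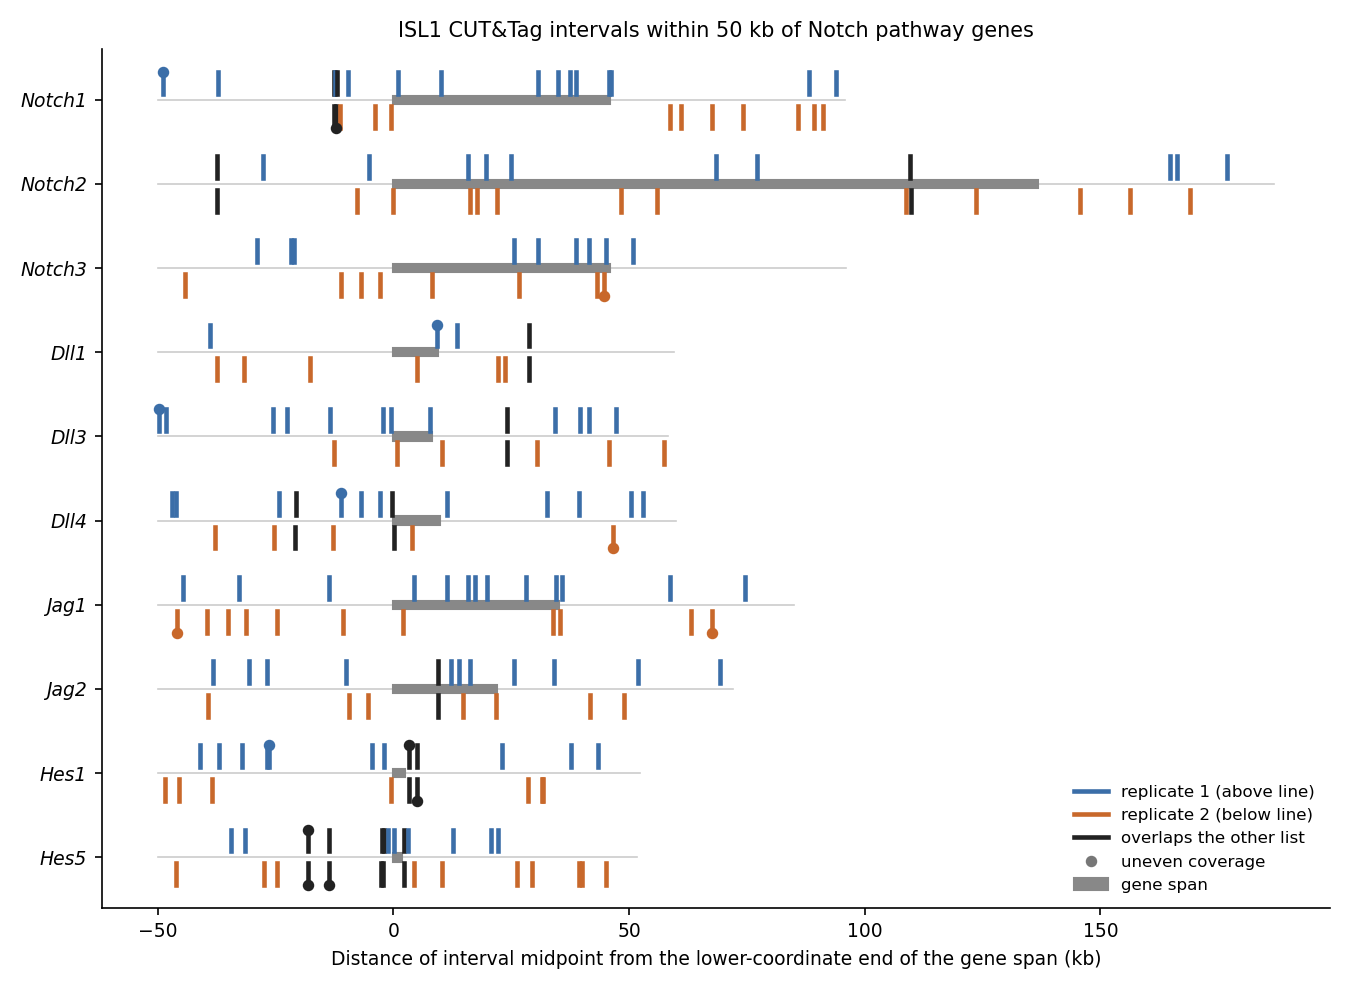
Map of all intervals within 50 kb of each gene span, by distance in kb of the interval's midpoint from the lower-coordinate end of the span. Ticks above the line are replicate 1 and ticks below it replicate 2, black ticks overlap the other list, and dots mark uneven coverage. Black ticks cluster beside Hes5 and Hes1 and are absent from Notch3 and Jag1.

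**Figure D2:**
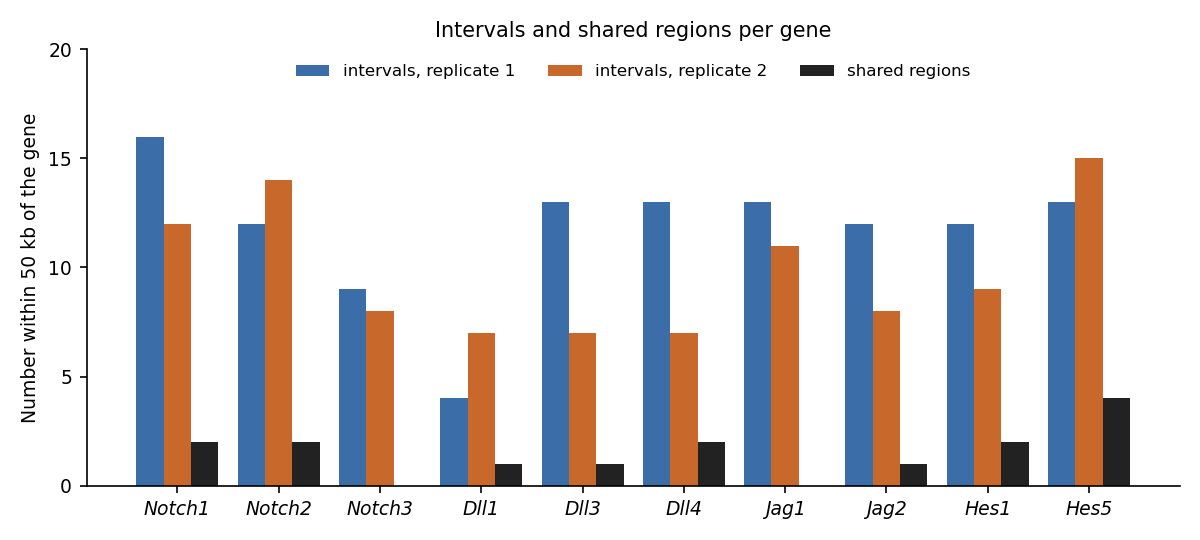
Number of intervals in replicate 1 (range 4 to 16) and replicate 2 (range 7 to 15) and of shared regions (0 to 4) within 50 kb of each gene, as single counts with no error bars. Hes5 has 4 shared regions, and Notch3 and Jag1 have 0.

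Most intervals did not recur. In replicate 1, 16 of 117 intervals (13.7%, 95% Wilson interval 8.6 to 21.1) overlapped replicate 2, against 11.5% of the whole list. In replicate 2, 16 of 98 (16.3%, 10.3 to 24.9) overlapped replicate 1, against 8.91% of the whole list. Wilson intervals cover counting error only. They take intervals as independent, although these lie together in 10 windows. Both counts of 16 come from the same overlapping pairs, so they are not separate results. Flat coverage made up 77.8% of the intervals in replicate 1 and 81.6% in replicate 2, close to the 82.0% and 83.3% of the whole lists. In replicate 1 the median density over the 10 genes was 10.4 per 100 kb of window (range 3.65 to 12.8) against 5.26 over all genes. In replicate 2 the median was 6.51 (5.48 to 14.7) against 6.12. Windows also hold other protein-coding genes, from 0 for Hes1 to 6 for Dll3. Among protein-coding genes, the 10 genes had the nearest gene end for 66 of the 117 and 54 of the 98 intervals.

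Promoter windows, 250 bases before to 50 bases after an annotated start site, came from RefSeq (GRCm38.p6, the same build as mm10) for 9 of the 10 genes. Hes1 had no promoter entry, so its promoter was not searched. Dll4 was the only gene of the 9 with an interval over the same promoter in both lists, where 6.96% of 17492 protein-coding genes with a promoter entry had this. Replicate 1 covered promoter bases of Notch1, Dll4 and Hes5 (3 of 9 genes, against 20.6% of all), and replicate 2 those of Notch2, Dll4, Jag1 and Jag2 (4 of 9, against 18.8%). The 250 bases before the start of these 6 genes are shown because they are the promoters on which intervals fell. Each is written 5′ to 3′ in the direction of transcription. In Dll4 (chr2:119325534-119325783, plus strand) capitals mark the 61 bases covered in both lists. In Notch1 (chr2:26503823-26504072, minus strand) they mark the 83 bases covered in replicate 1, and in Notch2 (chr3:98013288-98013537, plus strand) the 54 bases covered in replicate 2. Hes5 (chr4:154960673-154960922, plus strand) was covered over all 250 bases in replicate 1, and Jag1 (chr2:137116521-137116770, minus strand) and Jag2 (chr12:112929496-112929745, minus strand) over all 250 in replicate 2. In these 3 capitals mark instead each match on either strand to TAAT, the core bound by homeodomain proteins, or to TGGGAA, the core bound by RBPJ, and Jag2 has no match to either. The RefSeq gene span begins 297 bp before the listed start in Hes5 and 317 bp before it in Jag2.
Dll4: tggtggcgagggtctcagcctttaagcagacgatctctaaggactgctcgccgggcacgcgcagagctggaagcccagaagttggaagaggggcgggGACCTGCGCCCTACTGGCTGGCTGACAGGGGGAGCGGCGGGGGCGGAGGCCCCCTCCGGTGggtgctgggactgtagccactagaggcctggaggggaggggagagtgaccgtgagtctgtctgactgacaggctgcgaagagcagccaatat
Notch1: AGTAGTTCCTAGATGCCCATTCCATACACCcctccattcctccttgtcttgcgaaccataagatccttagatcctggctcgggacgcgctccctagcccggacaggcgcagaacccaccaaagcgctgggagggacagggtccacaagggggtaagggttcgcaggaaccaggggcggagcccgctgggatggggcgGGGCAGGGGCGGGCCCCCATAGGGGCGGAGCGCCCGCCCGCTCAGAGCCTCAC
Notch2: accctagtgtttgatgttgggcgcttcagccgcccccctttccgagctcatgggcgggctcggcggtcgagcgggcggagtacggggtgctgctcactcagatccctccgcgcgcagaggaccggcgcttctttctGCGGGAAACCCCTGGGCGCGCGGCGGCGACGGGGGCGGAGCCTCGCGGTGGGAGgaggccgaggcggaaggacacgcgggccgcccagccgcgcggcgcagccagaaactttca
Hes5: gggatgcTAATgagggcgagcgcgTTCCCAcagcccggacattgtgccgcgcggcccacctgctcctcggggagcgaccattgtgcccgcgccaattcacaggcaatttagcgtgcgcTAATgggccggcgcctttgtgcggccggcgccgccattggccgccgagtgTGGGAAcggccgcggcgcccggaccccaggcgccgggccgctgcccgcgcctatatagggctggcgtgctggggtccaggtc
Jag1: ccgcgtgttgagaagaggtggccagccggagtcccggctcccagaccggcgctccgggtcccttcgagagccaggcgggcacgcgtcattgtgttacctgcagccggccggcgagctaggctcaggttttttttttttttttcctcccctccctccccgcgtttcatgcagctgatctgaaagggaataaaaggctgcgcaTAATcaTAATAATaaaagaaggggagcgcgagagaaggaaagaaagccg
Jag2: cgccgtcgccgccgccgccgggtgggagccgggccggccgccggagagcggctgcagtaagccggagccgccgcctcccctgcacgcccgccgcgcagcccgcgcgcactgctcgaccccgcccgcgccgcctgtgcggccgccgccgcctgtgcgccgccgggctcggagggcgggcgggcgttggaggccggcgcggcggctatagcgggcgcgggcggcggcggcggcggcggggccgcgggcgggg

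Over the full 300 bases and both strands, TAAT was found in the promoters of 4 of the 9 genes, Dll1, Dll3, Hes5 and Jag1, and in 58.0% of 32851 promoters of that length in the table. The longer form TAATG occurred in Dll1 and Hes5 (26.8% of all promoters) and the palindrome TAATTA in none of the 9 (5.29%). Every TAATG or TAATTA match is also counted as TAAT. The GC content of the promoters of the 9 genes ran from 52% (Dll3) to 86% (Jag2), against a median of 52.7% over all promoters. No adjustment for it was made. The shares of all are of single promoters, while Dll1, with 2 promoters, was counted once. Hes5 was the only one of the 9 with TGGGAA (25.6% of all), with matches that begin 226 and 82 bases before the start site, beside TAATG matches that begin 243 and 132 bases before it. The E-box CANNTG was present in Dll1, Dll3, Hes5 and Jag1 (72.3% of all), and the N-box form CACNAG, bound by HES repressors, in Dll1, Dll4, Notch1, Notch2 and Notch3 (42.5% of all). The Dll4 promoter, the one with intervals from both lists, held no TAAT. A match is a description of the letters and not a binding site.

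**Figure D3:**
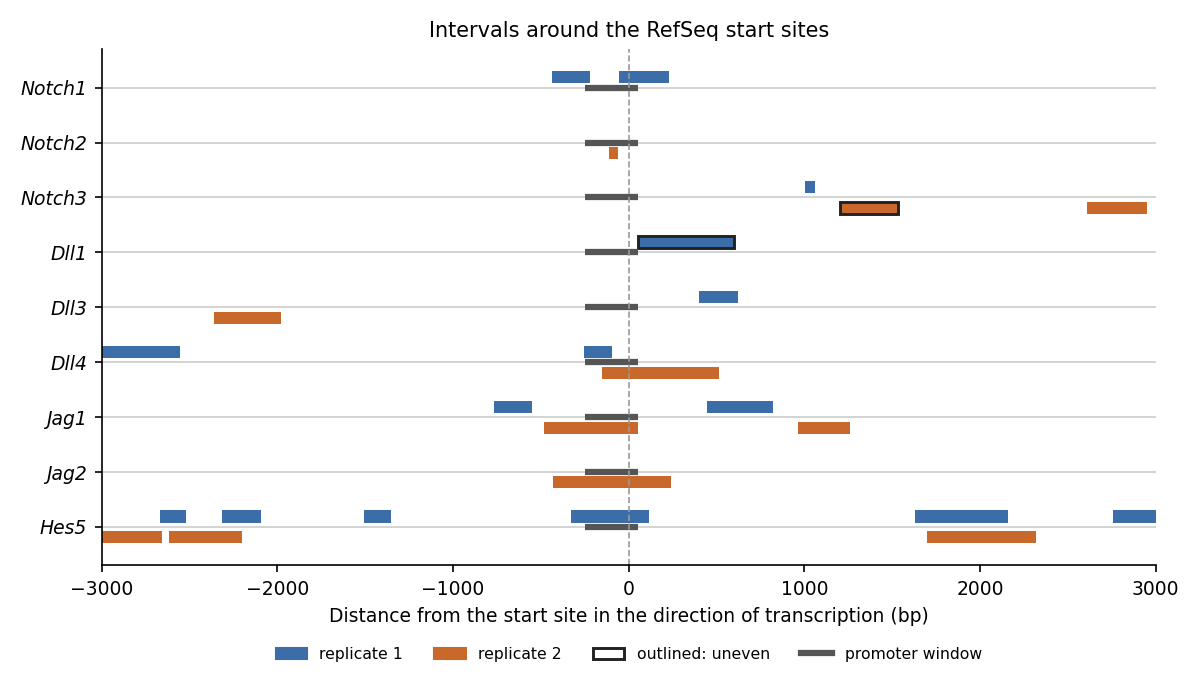
Intervals within 3000 bp of the RefSeq start site of 9 genes, in bp along the direction of transcription (for Dll1 the start site farther upstream), with replicate 1 above and replicate 2 below each line and the 300-base promoter window as a dark bar. Outlined boxes have uneven coverage. Only at Dll4 do both colours overlap within the dark bar, and at Jag1 they alternate without touching.

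Among the receptors, no shared region lay within 1 kb of an end of Notch1, Notch2 or Notch3. Such a region was found for 10.4% of all protein-coding genes. Notch1 encodes the receptor best known from retinal progenitors and spans chr2:26457902-26503822. It had 16 intervals in replicate 1 and 12 in replicate 2. Both of its shared regions had their midpoints inside and within 1 kb of an end of a neighbour, Sec16a, which encodes a protein of vesicle budding from the endoplasmic reticulum, and neither had Notch1 as the nearest gene. The stronger, chr2:26445662-26446276, had a maximum signal of 11 in replicate 1 (rank 18281 of 123923) and 58 in replicate 2 (rank 723 of 158881, uneven), 324 bp from the Sec16a end and 11933 bp from Notch1. The weaker, chr2:26445170-26445425, had maximum signals of 26 and 13. At the Notch1 start site itself only replicate 1 had intervals. One, chr2:26503595-26503875, crossed the start site with a flat maximum of 38 and rank 2727, and the other, chr2:26504043-26504258, had 14. The nearest replicate 2 interval was 12306 bp away. Within the gene body replicate 1 had 7 intervals and replicate 2 had 0.

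Notch2, a receptor gene of 136830 bp (chr3:98013538-98150367) and the longest of the 10, had 12 and 14 intervals. Its shared region inside the gene, chr3:98123033-98123597, lay 27052 bp from the nearest end and had maximum signals of 14 and 1. The other, chr3:97975844-97976298, had identical ends in both lists, with 1 and 12, and lay nearest to Gm5544. A single replicate 2 interval of 54 bp with a maximum of 24 lay over the promoter. Neither list had an uneven interval here. Notch3, known mainly from cells around blood vessels, spans chr17:32120820-32166896 and had 9 and 8 intervals with no overlap. The lists came closest downstream of the start site. Replicate 1 had chr17:32165829-32165889 (maximum 10), 1031 bp from it, and replicate 2 had chr17:32165355-32165687 (maximum 47, uneven, rank 2045), 1369 bp from it, with a gap of 141 bp between them. The best ranks in the Notch2 window were 9978 in replicate 1 and 7449 in replicate 2, so no interval there was in the top 1% of either list.

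Among the Delta-like ligands, Dll4 alone had a shared region at its own promoter. Dll4 encodes a ligand of newborn neurons and of sprouting vessels and spans chr2:119325784-119335666. The region, chr2:119325528-119326299, joined a replicate 1 interval 164 bp wide (maximum 18, rank 65352) with a replicate 2 interval 669 bp wide (maximum 7, rank 43020), which overlapped by 61 bp. Both were flat, and they stood 52.7% and 27.1% of the way down their lists. Its other shared region, chr2:119304753-119305230, had maximum signals of 21 and 2 and lay nearest to Vps18. Uneven intervals occurred in each list at different places. In replicate 1 it was chr2:119314301-119315242, 11012 bp before the gene (maximum 19, rank 2239). In replicate 2 it was chr2:119372029-119372597, 729 bp from the end of Ino80 (maximum 44, rank 867).

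Dll1, the main Delta ligand of differentiating retinal neurons, held the strongest interval of the 117 in replicate 1. This interval, chr17:15376332-15376878, had a maximum signal of 57, a total equal to 50.8% of width times maximum, and rank 738. It lay inside the gene (chr17:15367354-15376932) between its 2 annotated start sites, 327 bp from the nearer, and covered no base of either promoter window. Replicate 2 had no interval within 3825 bp of it. The best replicate 2 interval of the window ranked 44486, the lowest best rank of the 10 genes in either list. It was part of the only shared region, chr17:15396040-15396281, which had identical ends in both lists, maximum signals of 1 and 19, and a midpoint 42 bp from the end of Fam120b. Dll1 also had the fewest intervals in replicate 1, 4 against a range of 9 to 16 in the other 9 genes.

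Dll3, a Delta-like protein that acts inside cells and dampens Notch signalling, had its strongest interval in replicate 2. That list had a flat interval inside the gene, chr7:28294127-28294664, with a maximum of 23 and rank 1273, 840 bp from the lower-coordinate end of the span (chr7:28293555-28301785), which is the far end from the start site. Replicate 1 had chr7:28292867-28293439 (maximum 14, rank 8528) on the other side of that end, with a gap of 687 bp between the intervals. The only shared region, chr7:28317500-28317822, had identical ends, maximum signals of 17 and 1, and Supt5 as the nearest gene. The window holds 6 other protein-coding genes, and Dll3 was nearest to 2 of its 13 intervals in replicate 1 and 1 of 7 in replicate 2.

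Of the Jagged ligand genes, Jag1 had 0 shared regions and Jag2 had 1, where the median over all protein-coding genes was 1. Jag1, known in the eye from the lens, ciliary margin and vessels, spans chr2:137081451-137116520 and had 13 and 11 intervals with no overlap. Around its start site the lists alternated. From upstream to downstream, replicate 1 had chr2:137117068-137117285 (maximum 29), replicate 2 chr2:137116469-137117003 (maximum 18, rank 4010), replicate 1 chr2:137115699-137116072 (17) and replicate 2 chr2:137115260-137115557 (22), with the closest gap 64 bp. All 4 were flat. When intervals separated by at most 500 bp were also counted as shared, a definition chosen after the data were seen, Jag1 joined the genes with a shared region at an end. Jag2 (chr12:112907803-112929812) had 12 and 8 intervals. Its only shared region, chr12:112917211-112917579, lay inside the gene with identical ends and maximum signals of 5 and 1. The replicate 2 interval over its promoter, chr12:112929254-112929929, had a maximum of 4.

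Hes5 had more shared regions than any other of the 10 genes, and Hes1 had the pair with the longest overlap. Hes5, a bHLH repressor and direct Notch target of progenitors, spans chr4:154960626-154962372 and had 13 and 15 intervals in a window of 101.7 kb. Its 4 shared regions were a count reached by 4.1% of all genes. Of these, 2 flanked the gene. On the start side, chr4:154957714-154958830 had its midpoint 2354 bp outside the span and joined 2 intervals of each list. Its maximum signals were 12 and 23, and its best ranks were 69184 of 123923 and 3997 of 158881. At the other end, chr4:154962551-154963244 lay 526 bp outside the span with maximum signals of 7 and 9 and an overlap of 462 bp. Its ranks were 52527 and 29107. No interval in these 2 regions was uneven. The remaining regions had lower maximum signals. The region chr4:154942257-154942625, the only one of the 15 uneven in both lists, had maximum signals of 2 and 4 and lay nearest to Tnfrsf14, while chr4:154946908-154947194 had 1 and 2. Over the promoter shown above, replicate 1 had a flat interval, chr4:154960595-154961038 (maximum 17, rank 10722), and replicate 2 had none within 1582 bp.

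Hes1, the other bHLH repressor and the one that oscillates in neural progenitors, was the only gene of the 10 with no other protein-coding gene in its window. Among protein-coding genes it was nearest to all 12 and all 9 intervals there. It spans chr16:30065357-30067796. Both shared regions lay beyond its higher-coordinate end. The farther, chr16:30070005-30070583, was 2498 bp away, with an overlap of 478 bp, the longest of the 15 regions. It was flat in replicate 1 (maximum 14, rank 16038) and uneven in replicate 2 (maximum 34, rank 1098). The nearer, chr16:30068500-30068985, was 946 bp away, with a maximum of 16 in replicate 1 (uneven) and 12 in replicate 2 (flat). The strongest replicate 1 interval, chr16:30038743-30039398 (maximum 35, uneven, rank 1580), lay 26286 bp before the lower-coordinate end, 11704 bp from any replicate 2 interval. Neither list had an interval inside the gene. Outside the lower-coordinate end, replicate 2 had chr16:30064683-30065179 (maximum 9), 426 bp away. The nearest replicate 1 interval, chr16:30063110-30063654 (maximum 4), was separated from it by 1028 bp. Both shared regions overlapped Gm32998, and the strongest replicate 1 interval overlapped 9030404E10Rik. Neither of these is among the protein-coding genes used.

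**Figure D4:**
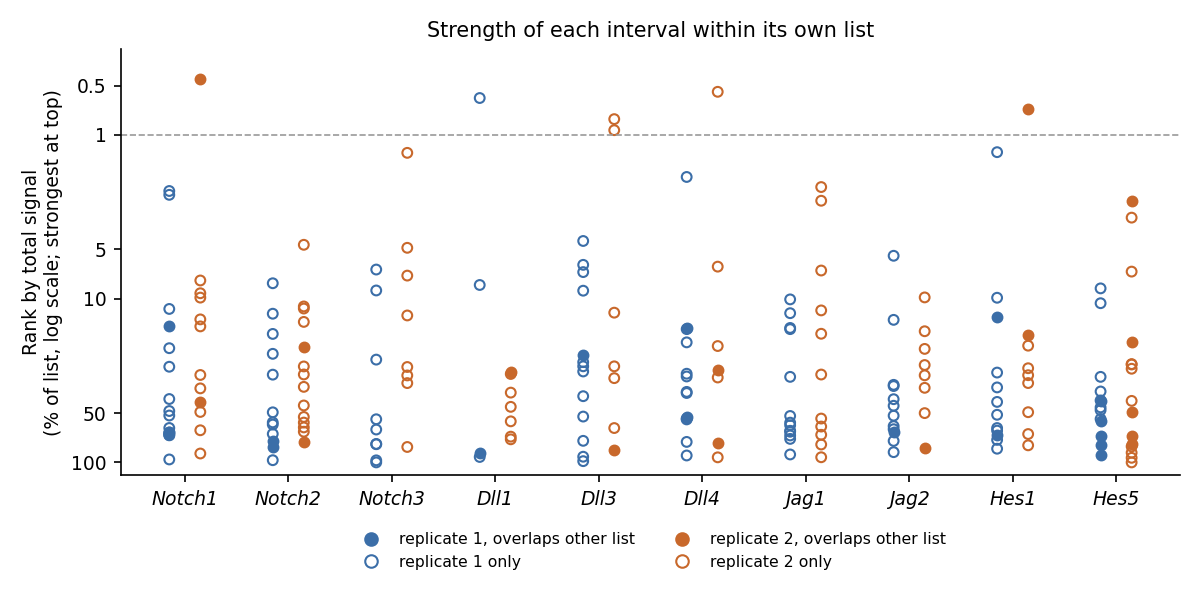
Rank of each interval by total signal as a percentage of its own list, on a log scale with the strongest at the top, by gene, with filled points overlapping the other list. The dashed line marks the top 1%, above which lie 1 of 117 intervals of replicate 1 (Dll1) and 5 of 98 of replicate 2 (Notch1, Dll3, Dll4 and Hes1).

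In replicate 1, 1 gene of the 10 had an interval in the top 1% of the list within 50 kb (Dll1), against 11.2% of all genes. In replicate 2, 4 had one (Notch1, Dll3, Dll4 and Hes1), against 13.6%. A gene with one in each list was rare, at 3.62% of all genes and 0 of these 10. Uneven intervals numbered 7 of 117 in replicate 1 (5.98%, Wilson interval 2.93 to 11.8), against 6.01% of the whole list. In replicate 2 they numbered 8 of 98 (8.16%, 4.19 to 15.3), against 5.79%. Both whole-list shares lay inside these Wilson intervals. Of the 10 genes, 4 (Notch1, Dll4, Hes1 and Hes5) had an uneven interval in each list, against 21.2% of all genes. With a 20 kb window 2 genes had one in each list, against 11.7%. A shared interval uneven in both lists was present for 1 gene, Hes5, against 7.53%.

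Most of the 10 genes had an interval at an end in each list, but few at the same place. Within 1 kb of either end of the span, 7 of 10 genes had an interval in replicate 1 (38.9% of all genes) and 8 of 10 in replicate 2 (38.4%). A shared region at an end was found for 3 genes, Dll4, Hes1 and Hes5, against 10.4%. Counting gaps of at most 500 bp as shared gave 4, with Jag1, against 15.5%. With the reciprocal overlap required to reach 50% of both intervals, 1 gene was left, against 4.62% of all genes.

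Other genes of the pathway, 40 from a wider list of modifiers, proteases, nuclear partners and targets, were counted in the same way. A shared region within 50 kb was found for 30 of 40, against 55.4% of all genes, and for 30 without identical pairs, against 51.0%. At a gene end 7 of 40 had one, against 10.4%, and 6 of 40 had a shared interval uneven in both lists, against 7.53%. Adam10, which encodes the protease that makes the first cut in a bound receptor, had such a region over a gene end, chr9:70678658-70679292, with maximum signals of 26 and 10. Its ranks were 40527 and 94638, on average 46.1% of the way down the lists. Psen2, a catalytic subunit of gamma-secretase, had one inside the gene, chr1:180243328-180244693, with 22 and 21 and ranks 27032 and 28058. Fbxw7, which encodes the ubiquitin ligase subunit that marks the Notch intracellular domain for degradation, had one inside the gene, chr3:84938198-84938995, with 26 and 25. Its ranks were 1492 and 16245.

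The uneven regions counted for Notch4, Aph1a and Nrarp lay nearest to other genes. That of Aph1a, another gamma-secretase subunit, had the best mean rank of the wider list (chr3:95928565-95929492, maximum signals 32 and 58, ranks 844 and 317) and lay 216 bp from the end of Anp32e. That of Notch4, a receptor of vessels, was 295 bp from Agpat1, with 62 and 12 and ranks 238 and 22221. That of Nrarp, a feedback inhibitor of Notch, was 71 bp from Tubb4b, with 15 and 26 and ranks 41566 and 11425. Nrarp also had a region 2720 bp from its own end (chr2:25185870-25186248, 44 and 23). Of the next-ranked genes, Hey1, a bHLH repressor related to Hes1, had a region over a gene end, chr3:8666689-8667347, with maximum signals of 24 and 32 and ranks 1814 and 8249. Maml3, a coactivator of the Notch complex, had one inside the gene with 21 and 18. The best regions of Psenen (26 and 35) and Mfng (19 and 31) lay nearest to Hspb6 and Elfn2.

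**Figure D5:**
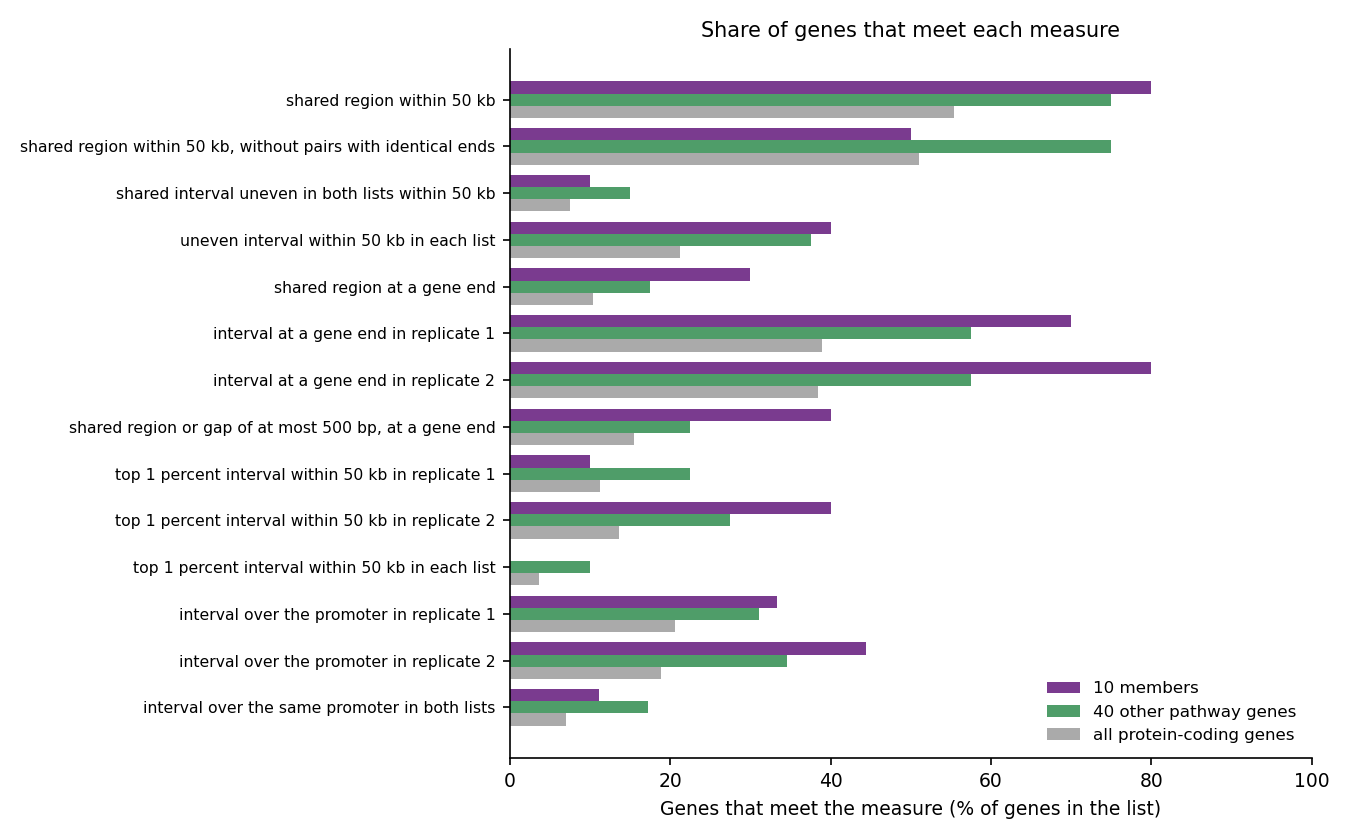
Percentage of genes that meet each measure in the 10 genes, in 40 other pathway genes and in all 21887 protein-coding genes. In the last 3 rows, on promoters, the denominators are 9, 29 and 17492 genes with a promoter entry. The single shared promoter among the 9 genes is Dll4, and a bar for 10 genes moves by 10 points with 1 gene.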

How the data were processed

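The authors deposited 1 list of intervals per sample, with 6 columns and no header, in the layout that SEACR writes: a position, its total and maximum signal, and where the maximum lies. The signal values are whole-number coverage as deposited, with no scaling apparent. Per the submitters' processing notes, SEACR, MACS2, Bowtie2 and FastQC were used with the build mm10. The caller that made the lists, its threshold, any control track and any removal of duplicates are not given in the sources used. If duplicates were kept, PCR copies of a single fragment raise signal without making coverage uneven.

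Intervals off chromosomes 1 to 19, X and Y (640 and 937) were left out. Gene spans came from a RefSeq table of GRCm38.p6, without exons. Start sites and strands came from the RefSeq promoter table, whose orientation was checked on 1668 pairs of overlapping promoters of opposite strands, all of which matched. Coordinates are 1-based. Distances run from an interval's midpoint. Overlaps were computed in Python 3.11.15 with pandas 2.3.3 and NumPy 2.4.6, and Wilson intervals at 95% with SciPy 1.17.1. The counting code was tested on simulated data.

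The 10 genes and the measures were chosen with earlier results of these data known. The top 1% and the 500 bp gap were added after the values were seen. Named were all 10 genes, from the wider list those with a shared interval uneven in both lists and the 4 others of best mean rank, and the protein-coding gene nearest to each shared region. Ino80, Gm32998 and 9030404E10Rik were named after their values were seen. As there is a single group, no groups were compared and no test was made.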

Additional observations from a re-analysis of the deposited data

How the results depend on the processing

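No paired analysis was possible because the samples form a single group. Of the 10 genes, 8 had a shared region, and the number was 5 with the gene span and 5 kb (all genes, 25.8%), 3 with the higher 50% of each list by total signal (28.4%), 4 without intervals of maximum signal 1 (41.5%), 5 without identical pairs (51.0%) and 5 when the gene itself had to be nearest, for which no share of all genes was computed. The 15 shared regions became 7, 3 and 9 under the first 3 of these settings, 8 with a reciprocal overlap of 50% and 8 when the gene had to be nearest. Genes with a shared region numbered 8 with a 20 kb window (all genes, 37.8%) and 6 with a reciprocal overlap of 50% (31.9%). They numbered 9 with a 100 kb window (73.5%) and 8 without maximum signals above 100 (55.2%). With gaps of at most 500 bp also counted as shared, they numbered 10 (71%). Of 3 genes with a shared region at an end, 1 was left with the higher 50% of each list (all genes, 6.07%) and 1 with the reciprocal overlap (4.62%). Replicate 1 alone gave 7 genes with an interval at an end (all genes, 38.9%) and replicate 2 alone 8 (38.4%). The 1 gene with a shared interval uneven in both lists became 0 with the gene span and 5 kb (all genes, 3.23%) and 0 with the higher 50% of each list (5.71%). The 4 genes with an uneven interval in each list became 2 with a 20 kb window (all genes, 11.7%) and 1 with the gene span and 5 kb (7.25%). Each list alone gave 6, for which no share of all genes was computed. The 6 genes of the wider list with a shared interval uneven in both lists became 3 with the gene span and 5 kb (all genes, 3.23%). With either list alone all 10 genes had an interval in the window. The share of all genes with one was not computed, but their median was 7 intervals in replicate 1 and 8 in replicate 2. Per gene, Hes1 and Hes5 kept at least 1 shared region in all 10 settings that give such a count, while the other 8 had none in at least 1. Of those, Notch3 and Jag1 had none to begin with. The share of all genes that keep one in all these settings was not computed. The setting in which the gene had to be nearest removed nothing for Hes1, whose window holds no other protein-coding gene. Depth is unknown, so an interval missing from 1 list cannot be told apart from one too shallow to be called.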

Other observations

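Several of the strongest intervals in the windows lay nearest to genes outside the Notch pathway. In the Notch1 window, replicate 1 had an uneven interval 298 bp inside Inpp5e, at chr2:26408733-26409160, with a maximum signal of 47 and rank 2878. In the Dll3 window, replicate 2 had an interval 318 bp inside Rps16, a ribosomal protein gene, at chr7:28350809-28351206, with a maximum signal of 30 and rank 1487, and replicate 1 had one 178 bp inside Eid2, at chr7:28267934-28268183, with a maximum of 33 and rank 7702. In the Jag2 window, replicate 1 had an interval 950 bp from the end of Nudt14, at chr12:112933148-112933534, with a maximum of 22 and rank 6780. None of these overlapped the other list. Inpp5e, Rps16, Eid2 and Nudt14 were named after their values were seen.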
